A study of Mus musculus with 4 samples.

Results

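The D-type cyclins Ccnd1, Ccnd2 and Ccnd3, their kinases Cdk4 and Cdk6, and the CDK inhibitors Cdkn1a, Cdkn1b, Cdkn1c and Cdkn2c were followed in adult mouse tendon. The 9 genes were chosen by symbol and make up 9 of the 22180 genes that the array's annotation names with exactly 1 symbol. Each of the 9 has 1 such probe set, so no choice between probe sets arose. The samples were Achilles and plantaris tendons, combined for each animal, of wild-type C57Bl/6 mice, an inbred laboratory strain, aged 4 months. The groups were 2 arrays from males and 2 arrays from females, and no animal was treated. The labels call the cell type tenocytes, but whole tendon was homogenized, and whether each array held 1 animal or a pool was not given in the sources used here. Since separate animals are not stated, p-values cover no more than the spread among these arrays, part or all of which may be technical. All levels are log2 RMA values, and differences are female minus male.

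Cell division is controlled late in the G1 phase. D-type cyclins bind Cdk4 or Cdk6, and the active kinases phosphorylate the retinoblastoma protein and its relatives, which releases E2F factors and opens the way to DNA replication. Inhibitors of the INK4 family, such as p18 (Cdkn2c), bind Cdk4 and Cdk6 directly. Inhibitors of the Cip/Kip family, p21 (Cdkn1a), p27 (Cdkn1b) and p57 (Cdkn1c), bind assembled cyclin and kinase complexes. Cells of adult tendon divide rarely, and these inhibitors are among the genes known to hold cells out of the cycle.

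Promoter windows of Cdk4, Cdkn1a and Cdkn2c are shown first. The RefSeq promoter table (GRCm38.p6) matched 6 of the 9 genes, namely Ccnd3, Cdk4, Cdk6, Cdkn1a, Cdkn1b and Cdkn2c, and not Ccnd1, Ccnd2 or Cdkn1c. The windows hold the 250 bases before an annotated start, written 5′ to 3′ on the gene's strand. Cdk4 is shown for its E-boxes (CACGTG, the site of Myc and related factors, in capitals), at chr10:127063285-127063534 on the plus strand. Cdkn1a has 2 annotated starts. The first window, chr17:29090729-29090978 on the plus strand, is shown for a match to the p53 site in capitals, and the second, chr17:29093519-29093768 on the plus strand, has its GC boxes (GGGCGG on either strand, the site of Sp1) in capitals. Cdkn2c also has 2 starts, chr4:109666757-109667006 and chr4:109665373-109665622, both on the minus strand, again with GC boxes in capitals.
Cdk4: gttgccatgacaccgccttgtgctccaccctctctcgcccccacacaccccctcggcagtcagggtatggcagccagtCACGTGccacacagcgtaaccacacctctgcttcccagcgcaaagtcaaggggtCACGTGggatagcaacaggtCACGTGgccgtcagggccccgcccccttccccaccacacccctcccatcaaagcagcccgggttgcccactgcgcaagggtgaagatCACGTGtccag
Cdkn1a, first start: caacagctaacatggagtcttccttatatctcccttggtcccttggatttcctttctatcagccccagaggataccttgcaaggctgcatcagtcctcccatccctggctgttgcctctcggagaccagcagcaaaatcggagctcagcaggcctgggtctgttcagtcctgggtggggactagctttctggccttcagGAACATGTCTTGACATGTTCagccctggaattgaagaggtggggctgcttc
Cdkn1a, second start: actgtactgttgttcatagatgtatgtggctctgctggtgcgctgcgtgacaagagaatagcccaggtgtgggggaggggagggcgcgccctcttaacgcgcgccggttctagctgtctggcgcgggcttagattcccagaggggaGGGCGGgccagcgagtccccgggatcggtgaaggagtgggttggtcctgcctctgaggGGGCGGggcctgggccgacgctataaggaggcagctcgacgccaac
Cdkn2c, first start: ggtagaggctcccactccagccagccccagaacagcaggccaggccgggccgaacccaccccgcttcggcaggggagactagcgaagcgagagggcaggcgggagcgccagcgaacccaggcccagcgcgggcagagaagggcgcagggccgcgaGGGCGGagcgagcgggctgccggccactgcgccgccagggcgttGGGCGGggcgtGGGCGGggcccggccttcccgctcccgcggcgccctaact
Cdkn2c, second start: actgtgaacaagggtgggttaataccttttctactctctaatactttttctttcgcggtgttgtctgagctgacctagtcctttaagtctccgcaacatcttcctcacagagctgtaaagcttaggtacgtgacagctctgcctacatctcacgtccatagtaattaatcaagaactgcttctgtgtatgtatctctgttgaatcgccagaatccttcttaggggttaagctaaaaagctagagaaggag

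The Cdk4 window held 4 E-boxes, which begin 172, 118, 98 and 11 bases before the start. The Cdk6 window, not printed, held 1, which begins 220 bases before the start. Of 32817 windows of that length in the table, 1976 (6.02%) held an E-box and 7 held 4 or more. The first Cdkn1a window held a match to the p53 site, searched as its consensus of 2 abutting decamers with at most 1 mismatch outside the cores. The match begins 51 bases before the start, and 15 of the 32817 windows (0.0457%) held one. GC boxes were found in 32.7% of all windows. The first Cdkn2c window held 3 and was 77.2% G and C, while its second window held none and was 42.8% G and C. The E2F motif (TTTCGCGC or TTTGGCGC, either strand, 0.655% of windows) was in none of the 9 windows of the 6 genes, and the forkhead motif (TGTTTAC, either strand, 3.16% of windows) was in 1, upstream of Ccnd3. None of these motifs overlapped another in the windows printed. These are matches of letters, and the array values do not separate the starts of a gene.

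How far the signal of each gene stood above background was examined next. The array medians over all rows lay between 2.27 and 2.30. As a measure of background, 1088 olfactory receptor genes, a family known for its use in the nose, had a 95th percentile between 2.71 and 2.90 per array, and 17 Y-linked genes had medians of 1.79 and 1.65 on the 2 female arrays. These background sets were chosen after the values had been seen. Of the 9 genes, 8, all but Cdk6, lay above both the array median and the olfactory 95th percentile on all 4 arrays. A probe set's value depends on its own probes as well as on the transcript, so levels of different genes are not ranked here, and which regulator has the most abundant transcript cannot be read from these arrays.

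Among the cyclins, Ccnd1, which links growth factor signals to the cycle, was at 4.42 and 4.34 in males 1 and 2 and at 4.24 in both females. Its sexes did not overlap, but the difference was -0.14 (SE 0.14, 95% interval -0.52 to 0.24). Ccnd1 had the narrowest range of the 9 genes over the 4 arrays, 0.19. Ccnd2, a close relative of Ccnd1, was at 5.31, 5.005, 5.14 and 5.19 in male 1, male 2, female 1 and female 2. Both female arrays lay between the 2 male arrays, and the difference was 0.01 (SE 0.17, 95% interval -0.45 to 0.48). Ccnd3, the D-type cyclin known to accumulate in differentiating muscle, was at 4.595, 4.01, 4.24 and 4.53 in the same order. Its spread lay within the males rather than between the sexes, with SDs of 0.41 in males and 0.20 in females (n = 2 each) and a difference of 0.08 (SE 0.26). The signs for Ccnd2 and Ccnd3 rested on single arrays: without male 2 they were -0.14 and -0.21, and without female 2 -0.01 and -0.06.

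Of the kinases, Cdk4 was above background and Cdk6 was not. Cdk4 was at 3.75 and 3.999 in males 1 and 2 and at 4.27 and 3.93 in females 1 and 2. The sexes overlapped, since male 2 lay above female 2, and the difference was 0.23 (SE 0.20, 95% interval -0.30 to 0.76). It was 0.059 without female 1, 0.10 without male 1, 0.35 without male 2 and 0.40 without female 2. Cdk6 was at 2.05, 2.08, 1.83 and 2.49 in male 1, male 2, female 1 and female 2. It passed the array median in female 2 alone and stayed under the olfactory 95th percentile on every array, so no difference is read from its values.

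**Figure D1:**
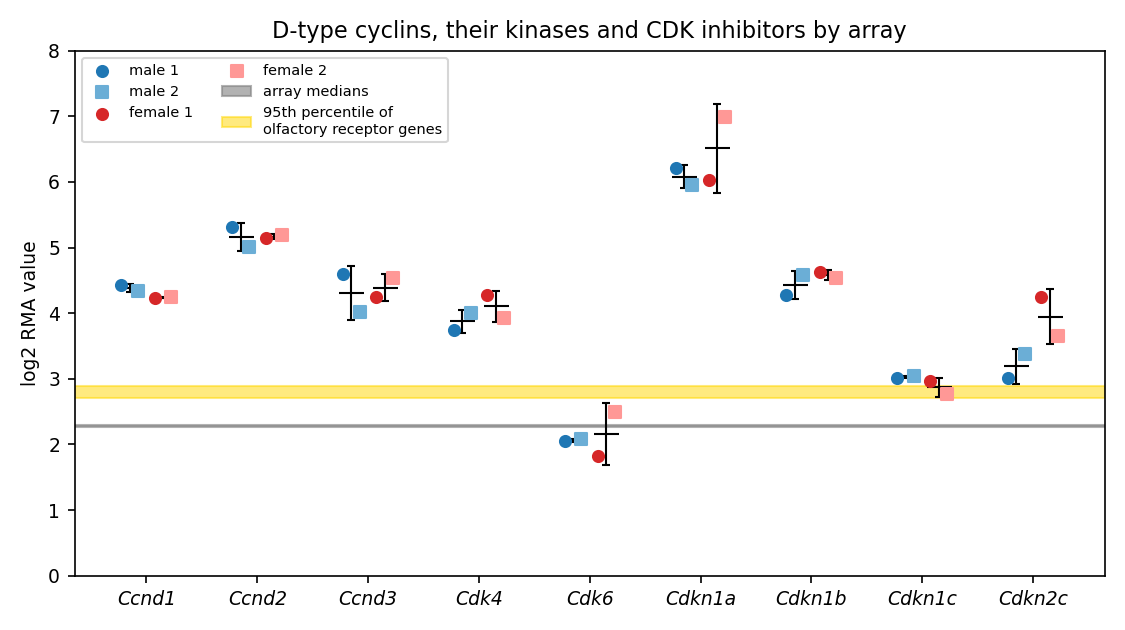
Log2 RMA values (vertical axis) of the 9 genes on each of the 4 arrays, with horizontal ticks and bars for the mean ± SD of each sex (n = 2). Cdk6 lies in the range of background genes (grey, array medians; yellow, 95th percentile of olfactory receptor genes over the 4 arrays), and Cdkn1a stands at 6.996 in female 2 against 5.96 to 6.21 elsewhere.

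Among the inhibitors, Cdkn1a (probe set 17335467), which encodes p21, an inhibitor induced by p53 and by stress, lay between 3.66 and 4.72 above the medians of its arrays. It was at 6.21 and 5.96 in males 1 and 2 and at 6.04 and 6.996 in females 1 and 2. Female 2 lay 0.93 above the mean of the other 3 arrays, whereas female 1 lay between the males, so the sexes overlapped. Mean levels were 6.08 ± 0.18 (SD, n = 2) for the male arrays and 6.52 ± 0.68 (SD, n = 2) for the female arrays, which gave a difference of 0.44 (SE 0.36, 95% interval -0.53 to 1.40). Without female 2 the difference was -0.04, and without female 1 it was 0.91. Cdkn1b, the p27 gene, was steadier, at 4.28 and 4.58 in males and 4.63 and 4.53 in females, with a difference of 0.15 (SE 0.18, 95% interval -0.32 to 0.62). The Cdkn1b difference was 0.0027 without male 1, whose value is the lowest of the 4.

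Cdkn1c, the imprinted p57 gene, gave a signal close to background. It was at 3.01 and 3.04 in males 1 and 2 and at 2.97 and 2.77 in females 1 and 2, against olfactory 95th percentiles of 2.90, 2.83, 2.71 and 2.72 on those arrays. Both females lay below both males, by a difference of -0.16 (SE 0.16, 95% interval -0.57 to 0.26), and without female 2 it was -0.05.

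Cdkn2c (probe set 17428217), which encodes the INK4 inhibitor p18, had the widest difference between the sexes of the 9 genes. It was at 3.01 and 3.38 in males 1 and 2 and at 4.24 and 3.65 in females 1 and 2. The value of male 1 lay close to background, against an olfactory 95th percentile of 2.90 on that array. Both female arrays lay above both male arrays, while the 2 female arrays differed by more than male 2 and female 2 did. Mean levels were 3.19 ± 0.26 (SD, n = 2) for the male arrays and 3.94 ± 0.42 (SD, n = 2) for the female arrays, which gave a difference of 0.75 (SE 0.27, 95% interval 0.02 to 1.48). The unadjusted limma p was 0.0468 and the adjusted p = 0.969, so Cdkn2c did not pass the threshold of 0.05. The unadjusted limma p was at or above 0.05 in 9 of the 14 alternatives that gave one, and ran from 0.0196 to 0.189. The difference stayed positive without each array in turn, between 0.45 without female 1 and 1.05 without female 2.

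As a group, 0 of the 9 genes passed limma's test at an adjusted p under 0.05, as did 0 of all 23521 probe sets tested (0%). Those tested include the 17 Y-linked genes, which females lack, so a count of 0 does not show that the sexes are alike. The adjusted p of the 9 genes ran from 0.969 to 0.999. At an unadjusted p under 0.05 there was 1 gene of the 9 (11.1%), Cdkn2c, beside 4.49% of all probe sets. The sexes did not overlap for 3 genes, Ccnd1, Cdkn1c and Cdkn2c, which is 33.3% of the 9, and for 33.3% of all probe sets. A two-sided exact permutation test of 2 arrays per sex cannot go below p = 0.333, the value each of those 3 genes has. Of the 9 means, 7 (77.8%) were higher in females, beside 48.8% of all probe sets, with no test of that share, and the median difference was 0.09, against -0.01 over all probe sets, and the median absolute difference was 0.15 in both.

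**Figure D2:**
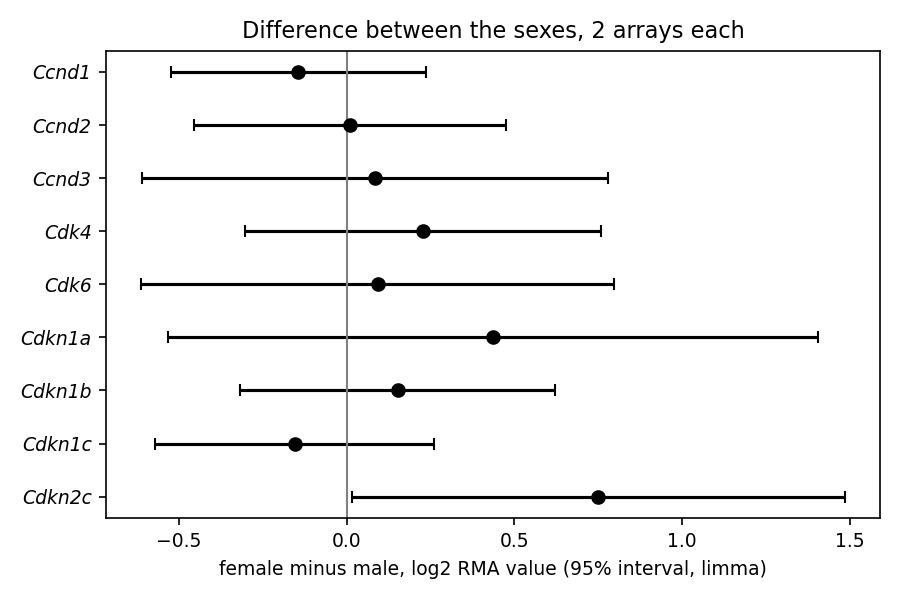
Female minus male difference in log2 RMA value (horizontal axis) for the 9 genes, with limma's 95% interval, from 2 arrays of each sex. The interval includes 0 for 8 of the 9 genes and runs from 0.02 to 1.48 for Cdkn2c.

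The tissue label was checked because whole tendon holds several cell types. The tendon markers Tnmd and Col1a1 had means above every array median in both sexes, with Tnmd at 4.39 to 5.06 and Col1a1 at 6.04 to 6.54, and 10 of 12 tendon markers lay above the median on all 4 arrays. The tendon transcription factor Scx was between 3.18 and 3.58. Skeletal muscle markers did so in 14 of 14, with a median per array between 9.13 and 9.89, and adipocyte markers in 10 of 11. Ckm, the muscle creatine kinase, was between 9.72 and 10.52, and Adipoq, the adiponectin gene, between 4.62 and 6.67. Endothelial markers did so in 12 of 12 and macrophage markers in 10 of 11. Which of these cells gave the signal of the 9 genes was not tested, and fewer cells of a type and less RNA per cell cannot be told apart. Among lymphocyte markers, 0 of 7 lay above the median on all arrays.

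Female 2, where Cdkn1a was highest, also stood apart in other cell type markers. Macrophage markers had a median deviation from the gene means of 0.85 there and between -0.32 and -0.28 on the other arrays. Their summed level, on the log2 scale, was 8.60 and 8.86 in males and 8.67 and 9.76 in females, and 11 of 11 measured markers had a higher mean in females. Adipocyte markers deviated by 0.43 in female 2, with summed levels of 11.45 and 11.62 in males and 11.71 and 11.70 in females, and muscle markers by -0.20, with summed levels of 13.79 and 13.75 in males and 13.80 and 13.26 in females. Muscle markers were not uniformly lower in female 2. Myh4 was at 7.35 there against 10.20 to 10.61 elsewhere, but Tnnt1 was at 9.87 against 9.18 to 10.05, both named after their values were seen. The part of these cell types in the Cdkn1a value was not tested. For Cdkn2c, which was highest in female 1 and lowest in male 1, the deviations are given on those arrays in that order. They were -0.26 and 0.22 for tendon markers, 0.23 and 0.12 for muscle markers and 0.13 and -0.33 for adipocyte markers. Endothelial markers deviated by -0.06 and -0.37, and macrophage markers by -0.28 and -0.32. Of the adipocyte markers, 10 of 11 had a higher mean in females, as Cdkn2c did, with a median difference of 0.46. A higher mean in females was also found for 11 of 11 macrophage, 8 of 12 endothelial, 6 of 12 tendon and 5 of 14 muscle markers. At an unadjusted limma p under 0.05 were 3 of 11 adipocyte and 2 of 12 tendon markers. The same held for 1 of 14 muscle, 1 of 11 macrophage and 1 of 12 endothelial markers, beside 4.49% of all probe sets. The part of these cell types in the Cdkn2c value was not tested.

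**Figure D3:**
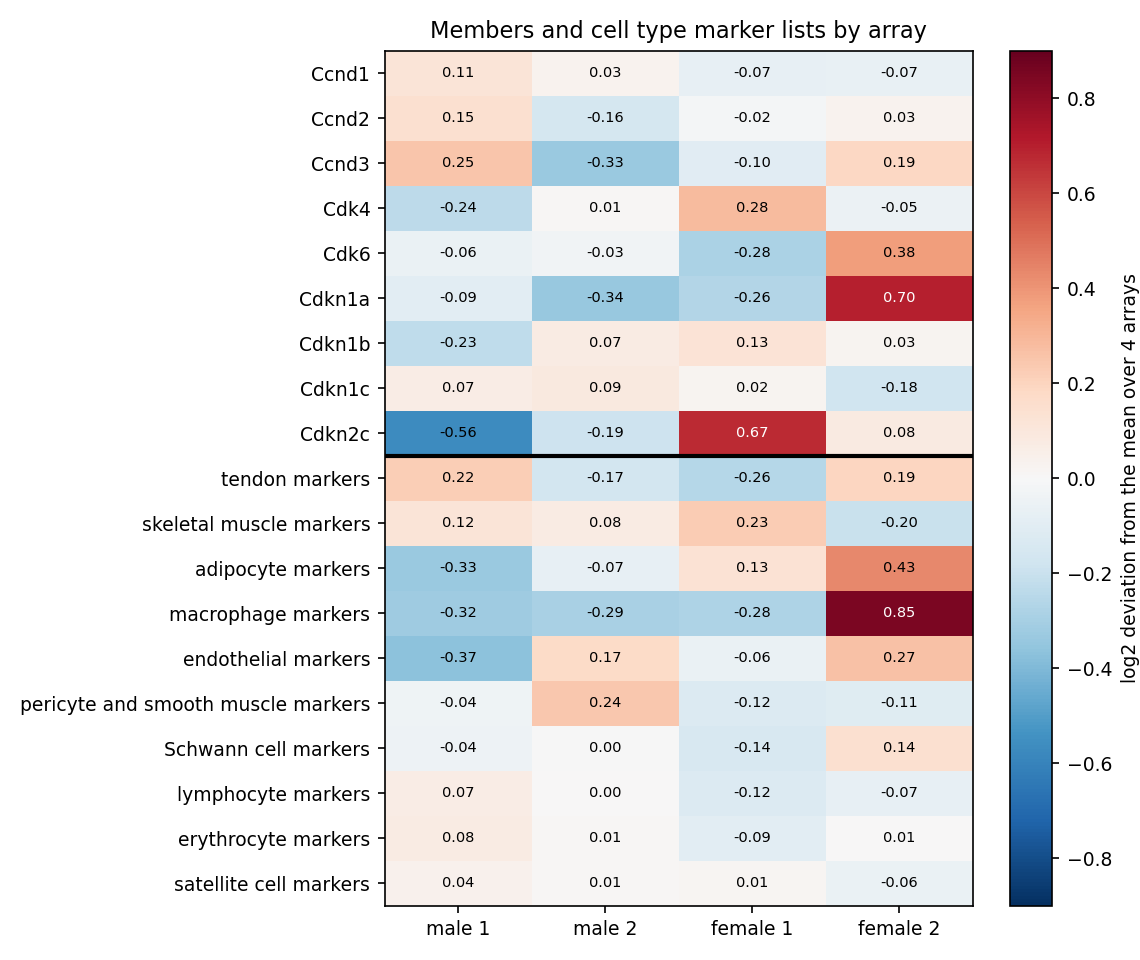
Deviation of each gene from its own mean over the 4 arrays (rows above the line, log2), and the median of such deviations over each list of cell type markers (rows below it), for each array. Cdkn1a (0.70) and macrophage markers (0.85) are high in female 2, and Cdkn2c is high in female 1 (0.67) and low in male 1 (-0.56).

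The genes with the most similar profiles over the 4 arrays were listed for the 3 genes with the widest range, Cdkn2c (1.23), Cdkn1a (1.04) and Cdk6 (0.66). Likeness was the root mean square distance between profiles centred on their own means, among 7268 genes with a mean above the median and a range of at least 0.5. Gnrh1 (distance 0.01), Per1 (0.02) and Abhd12 (0.05) were nearest to Cdkn2c. Per1, a core gene of the circadian clock, was at 5.08, 5.45, 6.26 and 5.73 in male 1, male 2, female 1 and female 2, which is the order of arrays seen for Cdkn2c. Dock8 (0.02), Frmd4b (0.03) and Terf2 (0.04) were nearest to Cdkn1a, each with its highest value in female 2. Adamts6 (0.01), Plcd3 (0.02) and Elk3 (0.03) were nearest to Cdk6, although Cdk6 itself lay in the background. With 4 arrays, close profiles are easily found among 7268 genes, and these are given as a description.

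The remaining genes of the pathway were compared by role, over 8 lists with 132 measured genes of 140 listed. Limma called 0 of the 132 in either direction after adjustment over all probe sets. At an unadjusted p under 0.05 there were 10 (7.58%, beside 4.49% of all probe sets), 7 higher and 3 lower in females. The sexes did not overlap for 48 (36.4%, beside 33.3%), and the median difference was -0.01, as over all probe sets.

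The other INK4 inhibitors, which bind the same kinases as Cdkn2c, had signals near background. Cdkn2a was between 2.53 and 2.74 over the 4 arrays, Cdkn2b between 2.44 and 3.19, and Cdkn2d between 2.79 and 3.28. Their differences were 0.09, -0.16 and 0.11, and the sexes overlapped in 3 of 3. The wider difference of Cdkn2c was not compared with these by a test.

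Of the partner kinases and later cyclins, 9 of 14 had a lower mean in females (median -0.05), and 5 lay above the median on all arrays. Cdk2, the kinase that follows Cdk4 in the cycle, was at 3.13, 2.42, 2.62 and 2.89, and its cyclin Ccne1 at 2.62, 2.49, 2.24 and 2.36, in male 1, male 2, female 1 and female 2. Cdk7, of the CDK-activating kinase, differed by -0.54 (SE 0.22), with female 1 below the olfactory 95th percentile. Ccne1 and the mitotic cyclin Ccnb2, at 2.24, 2.11, 2.28 and 2.65, stayed below the olfactory 95th percentile on every array, and no difference is read from them. Ccne2 and Ccnb1 were not analysed here. Replication and mitosis genes had a median level of 2.34, with 9 of 23 below the median on all 4 arrays and 7 of 23 above it on all 4. Among the replication and mitosis genes Mki67, the proliferation marker, was between 1.77 and 2.07 and below every array median. Pcna, named after its values were seen, was between 5.71 and 6.08. Rrm1 and Rrm2, subunits of ribonucleotide reductase, differed by -0.72 (SE 0.34) and 0.66 (SE 0.15), and the second probe set of Rrm2 by 0.03. Rrm1 lay below the olfactory 95th percentile in female 2, and Rrm2 in both males. The second probe set of Rrm2 did so on all 4 arrays.

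The retinoblastoma family, targets of the cyclin D kinases, was listed together with genes of the E2F and DREAM complexes. Of this list 11 of 20 were higher in females, with a median of 0.06. Rb1, the retinoblastoma gene, was at 4.06 in male 1 and between 4.86 and 4.88 on the other 3 arrays. Its second probe set differed by -0.69 (SE 0.44), against 0.39 (SE 0.31) for the first. Rbl2, the pocket protein of resting cells, was likewise at 3.43 in male 1 and between 4.71 and 5.19 elsewhere. Rbl1 and E2f1, known from cycling cells, lay below every array median, at up to 2.15 and 2.13, while the repressor E2f4 was at 3.87 and 4.48 in males and 3.65 and 3.81 in females. Tfdp1, an E2F partner, had the widest difference, -1.37 (SE 1.02), and it came from male 1, at 7.53 against 4.30 to 5.11 elsewhere.

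In that list 3 genes had an unadjusted p under 0.05, of which Lin37 and E2f3 are named after their values were seen. Lin52, a DREAM subunit, was at 2.43 and 2.39 in males and 3.88 and 3.16 in females, a difference of 1.11 (SE 0.28). Both male values of Lin52 lay below the olfactory 95th percentile, so the size of its difference is uncertain. Lin37, a further DREAM subunit, was at 3.14 and 3.09 in males and 3.86 and 3.79 in females, a difference of 0.71 (SE 0.14). E2f3 was at 3.72 and 3.83 in males and 2.82 and 2.98 in females, a difference of -0.87 (SE 0.16). Males and females were separate for all 3, as for 11 of the 20 genes of the list and 33.3% of all probe sets. Since the 3 were picked by their p, their separation is no further support. Limma's adjusted p was 0.969 for each.

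Among genes of cyclin D and p27 turnover, 8 of 15 had a lower mean in females (median difference -0.01). Skp2, which marks p27 for degradation, was at 2.77 in both males and at 2.17 and 2.35 in females, below the olfactory 95th percentile on all 4 arrays, so no difference is read from its values. Ambra1, which directs the degradation of D-type cyclins, was at 3.95 and 3.77 in males and 4.55 and 4.24 in females, a difference of 0.54 (SE 0.18). Fbxw8, also linked to cyclin D turnover, differed by -0.55 (SE 0.24), with female 1 below the olfactory 95th percentile. Ambra1 and Skp2 were the genes of this list at an unadjusted p under 0.05, and the adjusted limma p was 0.969 for each.

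Upstream factors, all 28 of which lay above the median on every array, had a median of 0.04 with 16 higher in females. Foxo1, a forkhead factor known to induce Cdkn1b, was between 4.83 and 5.02 and Foxo3 between 2.59 and 2.80, with differences of -0.03 and -0.01. Foxo3 passed the olfactory 95th percentile on 1 of the 4 arrays. Junb, an AP-1 factor known to act against Ccnd1, was at 4.46 and 4.38 in males and 3.26 and 4.08 in females, a difference of -0.75 (SE 0.31), and Klf6, known as an inducer of Cdkn1a, differed by -0.60 (SE 0.31). Klf10, named after its value was seen, was the 1 gene of this list at an unadjusted p under 0.05. It was at 2.59 and 2.42 in males and 2.85 and 3.22 in females, a difference of 0.53 (SE 0.20). Both male values of Klf10 lay below the olfactory 95th percentile, so the size of its difference is uncertain.

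The p53 pathway, of which Cdkn1a is a target, had 12 of 19 measured genes lower in females and a median of -0.08. Mdm2, a p53 target and its inhibitor, was at 4.50, 4.43, 4.46 and 4.24 in male 1, male 2, female 1 and female 2. Ddit4, a stress-induced inhibitor of mTOR, was at 5.82 in female 2 and between 2.47 and 3.34 on the other arrays. Its difference was 1.65 (SE 0.91), with male 1 below the olfactory 95th percentile. Mdm4, a relative of Mdm2, differed by 1.11 (SE 0.42). Over the whole list the median deviation in female 2, where Cdkn1a was highest, was -0.05. The part of p53 in the Cdkn1a value was not tested. Sesn1 at 0.97 (SE 0.28) and Eda2r at -0.84 (SE 0.26) had an unadjusted p under 0.05, and were named after their values were seen. Eda2r was at 3.03 and 2.86 in males and 2.42 and 1.78 in females. Both female values of Eda2r lay below the olfactory 95th percentile, so the size of its difference is uncertain. Trp53 itself, Bax and Gadd45a were not analysed here.

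Imprinted genes were included because Cdkn1c is one, and 7 of 11 had a lower mean in females (median difference -0.08). Peg3, a paternally expressed gene, was at 4.09 and 4.26 in males and 4.93 and 5.09 in females, a difference of 0.84 (SE 0.16), and was the 1 gene of this list at an unadjusted p under 0.05, with an adjusted limma p of 0.969. Grb10 differed by 0.51 (SE 0.34), and its sexes overlapped.

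**Figure D4:**
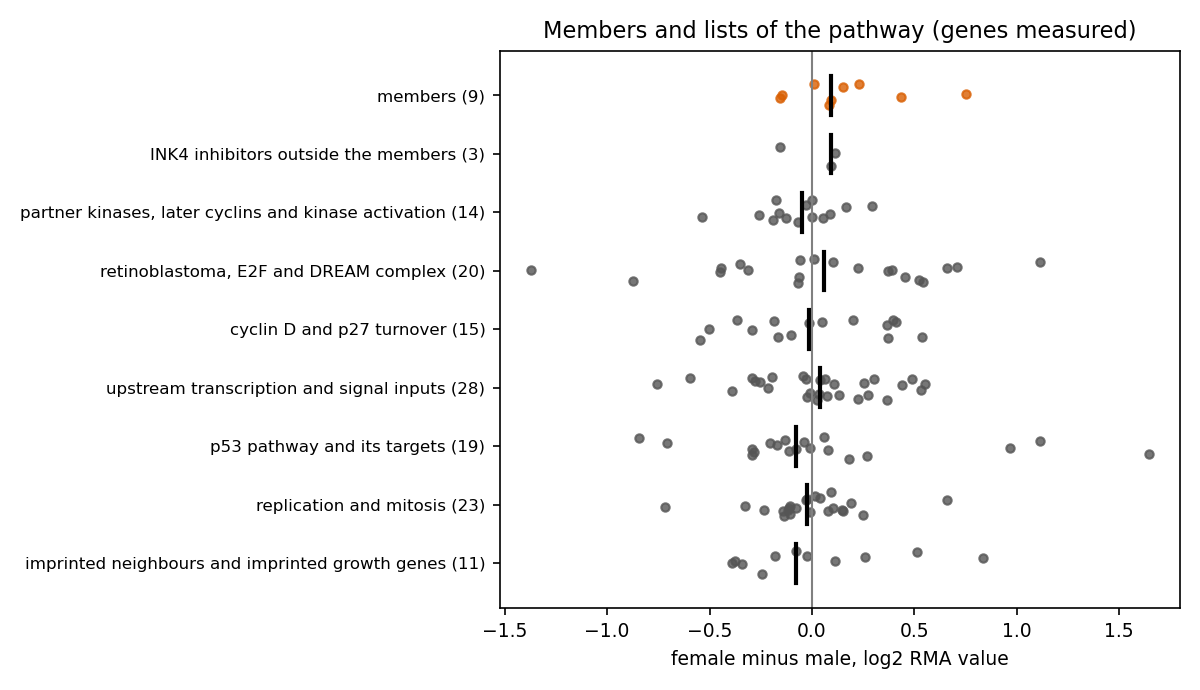
Female minus male difference in log2 RMA value (horizontal axis) for the 9 genes (orange, "members") and for each measured gene of 8 pathway lists (grey), with a vertical bar at each median. List medians lie between -0.08 and 0.09, with single genes such as Ddit4 (1.65) and Tfdp1 (-1.37) at the edges.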

How the data were processed

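The deposited table holds log2 expression values, 1 column per array, made by the authors with oligo and RMA, per the submitters' processing notes; no versions are named there. It has 41345 rows, of which the platform annotation gives exactly 1 symbol to 23521, several to 1814 and none to 16010. No further normalization or filter on low values was applied. Sex was the only term of a limma 3.58.1 fit in R 4.3.3 (lmFit, eBayes), with Benjamini-Hochberg adjustment over all 23521 probe sets and a threshold of 0.05; the procedure was tested on simulated data. Precision is set by the number of arrays (median SE of a difference, 0.19). The members and lists were chosen with earlier results of these data known. The text names the 9 genes, 22 further genes in any case where measured, and from each pathway list the 2 of widest difference with a mean above the array medians in at least 1 sex; other genes are named as chosen after their values were seen. Plots were made in Python 3.11.15 with matplotlib 3.10.9. The alternatives covered the probe sets tested, filters, the prior, normalization, centring, weights, the replicate number, the threshold, probe sets per gene and each array in turn.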

Additional observations from a re-analysis of the deposited data

How the results depend on the processing

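Limma called 0 of the 9 genes and 0 probe sets under all 15 alternatives, with 0 or 1 of the 9 genes at an unadjusted p under 0.05 in each. That gene was Cdkn2c except without female 1, where it was Cdkn1a, and Cdkn2c was at or above 0.05 in 9 of the 14 alternatives that gave a p. Of all 23521 probe sets 1056 were at that p in the fit reported, and between 836 and 1511 as each array was left out. With the replicate number as a block, 0 of the 9 genes were called and 981 probe sets had an unadjusted p under 0.05; deviations from the sex means correlated at -0.06 between male 1 and female 1, so the numbers were not taken to pair the samples. The sign of Ccnd2 turned after quantile normalization once more (-0.033), without male 2 (-0.14) and without female 2 (-0.014), within a range of -0.14 to 0.16 as each array was left out. Ccnd3 turned without male 2 (-0.21) and without female 2 (-0.059), within -0.21 to 0.38. Without female 2 Cdk6 turned (-0.24, range -0.24 to 0.42), as did Cdkn1a (-0.045, range -0.045 to 0.91). The signs of Ccnd1, Cdk4, Cdkn1b, Cdkn1c and Cdkn2c held under quantile normalization once more, centring and leaving out each array in turn. The other alternatives leave the difference of a gene with 1 probe set unchanged, so they do not bear on its sign. Cdk6 has no value under the filters on dim probe sets. Where 1 array of a sex was left out, the lone array is assumed to vary like the other sex. The cause of these turns was not tested.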
